A study of Mus musculus with 12 samples.

Results

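The tumour necrosis factor (TNF) ligand and receptor superfamilies were followed across sorted CD4+ T cells from a mouse tumour model. The members were all genes in the count table whose symbol begins with Tnfrsf or Tnfsf, together with Cd27, Cd40, Cd70, Cd40lg, Fas, Fasl, Ltbr, Lta, Ltb, Tnf, Ngfr and Eda2r. They made 44 of 24062 genes, 26 receptors and 18 ligands. Of these, 38 had enough counts to be tested, 23 receptors and 15 ligands. The other 6 were Tnfrsf11b, Ngfr, Tnfrsf17, Tnfsf18, Tnfsf13 and the fused Tnfsf12Tnfsf13 locus, and their values lay between 0 and 0.318 CPM (counts-per-million) in every library. A gene was called changed at a Benjamini-Hochberg adjusted p under 0.05 over all 13509 tested genes in edgeR's quasi-likelihood test.

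The 12 libraries formed 6 groups of 2. Regulatory T cells (Treg, sorted as CD4+GFP+) and conventional T cells (Tconv, CD4+GFP-) came from the tumour of tumour-bearing (TB) mice, from the spleen of TB mice and from the spleen of normal mice, all of the C57BL/6 strain. TB mice had received 500000 TC-1 cells, a transplantable tumour line of mouse lung epithelium, into the tail vein 3 weeks earlier, and the normal mice had received none. The labels do not state the reporter allele behind the GFP. They also leave out whether the paired libraries of each group had separate mice as their source, and p-values then describe only the spread of these libraries, which may be technical. The libraries analysed here include no matching organ from normal mice, so tumour and organ cannot be told apart in a comparison of tumour with spleen. Levels are CPM after TMM scaling, given for library 1 and then library 2 of a group, and changes are log2 fold changes ± SE.

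Receptors of this family are membrane proteins bound by trimeric ligands. Those with a death domain, such as Fas and TNFR1, recruit FADD or TRADD and can lead to caspase activation. Many receptors of the family, with or without a death domain, can turn on NF-κB through TRAF proteins. In T cells, OX40, GITR, 4-1BB, CD27 and CD30 act as costimulatory receptors after antigen encounter, and TNFR2, OX40 and GITR are well known on Treg. The sort could be read from the RNA. Foxp3, the transcription factor that defines Treg, had 989 to 1247 CPM in the 6 Treg libraries, against 11.5 to 19.6 CPM in the 6 Tconv libraries. Total counts per library ran from 18624132 to 24111546. The tumour libraries also held markers of other cell types. Fibroblast markers summed to 423 and 402 CPM in tumour Treg and 217 and 529 CPM in tumour Tconv, against at most 2.03 CPM in any spleen library.

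Promoter stretches with a match to the NF-κB letters GGGANNNNCC are printed for 4 members that the results turn on. Tnfrsf9 and Tnfrsf8 are receptors high in Treg, Tnfsf11 is a ligand whose order between Treg and Tconv changed in the tumour, and Ltb is a ligand low in the tumour. Each is a stretch of RefSeq sequence of build GRCm38.p6, 5′ to 3′ on the gene's own strand, and capitals mark matches to the NF-κB letters on either strand or to the AP-1 letters TGANTCA. The stretches of Tnfrsf9 and Tnfrsf8 hold both kinds of match, and those of Tnfsf11 and Ltb hold NF-κB letters read on the opposite strand.
Tnfrsf9 (chr4:150927922-150927998, plus strand): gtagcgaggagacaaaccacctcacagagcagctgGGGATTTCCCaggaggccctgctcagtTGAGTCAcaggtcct
Tnfrsf8 (chr4:145315287-145315366, minus strand): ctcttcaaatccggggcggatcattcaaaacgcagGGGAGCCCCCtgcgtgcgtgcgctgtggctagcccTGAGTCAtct
Tnfsf11 (chr14:78308154-78308233, minus strand): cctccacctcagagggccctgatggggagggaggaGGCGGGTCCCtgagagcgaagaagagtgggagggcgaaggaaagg
Ltb (chr17:35194385-35194464, plus strand): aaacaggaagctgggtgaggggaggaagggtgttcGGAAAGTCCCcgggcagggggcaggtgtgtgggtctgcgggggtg

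In windows from 250 bases before to 50 after a RefSeq start, 33 members had 37 windows. NF-κB letters lay in 10 of the 37, which is 27.0%, against 20.7% of all 32851 windows, and AP-1 letters in 7, which is 18.9%, against 7.81%. Beyond the members printed above, NF-κB letters were in windows of Eda2r, Tnf, Tnfrsf13b, Tnfrsf14, Tnfrsf25 and Tnfsf14. Of these, Tnfrsf14 was called in no comparison. Tnfrsf9 has 2 windows, and the printed stretch, from the only 1 with NF-κB letters, lies inside the gene's span (chr4:150914562-150946102). No NF-κB or AP-1 letters were found in the windows of Tnfrsf4, Tnfrsf18 or Tnfrsf1b. The forkhead letters GTAAACA were in 2 windows, those of Eda2r and Ltb, which is 5.41%, against 3.65% of all windows. Windows of neighbouring genes and of 1 gene with several starts are not independent, and a match describes the letters of a window and no binding.

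**Figure D1:**
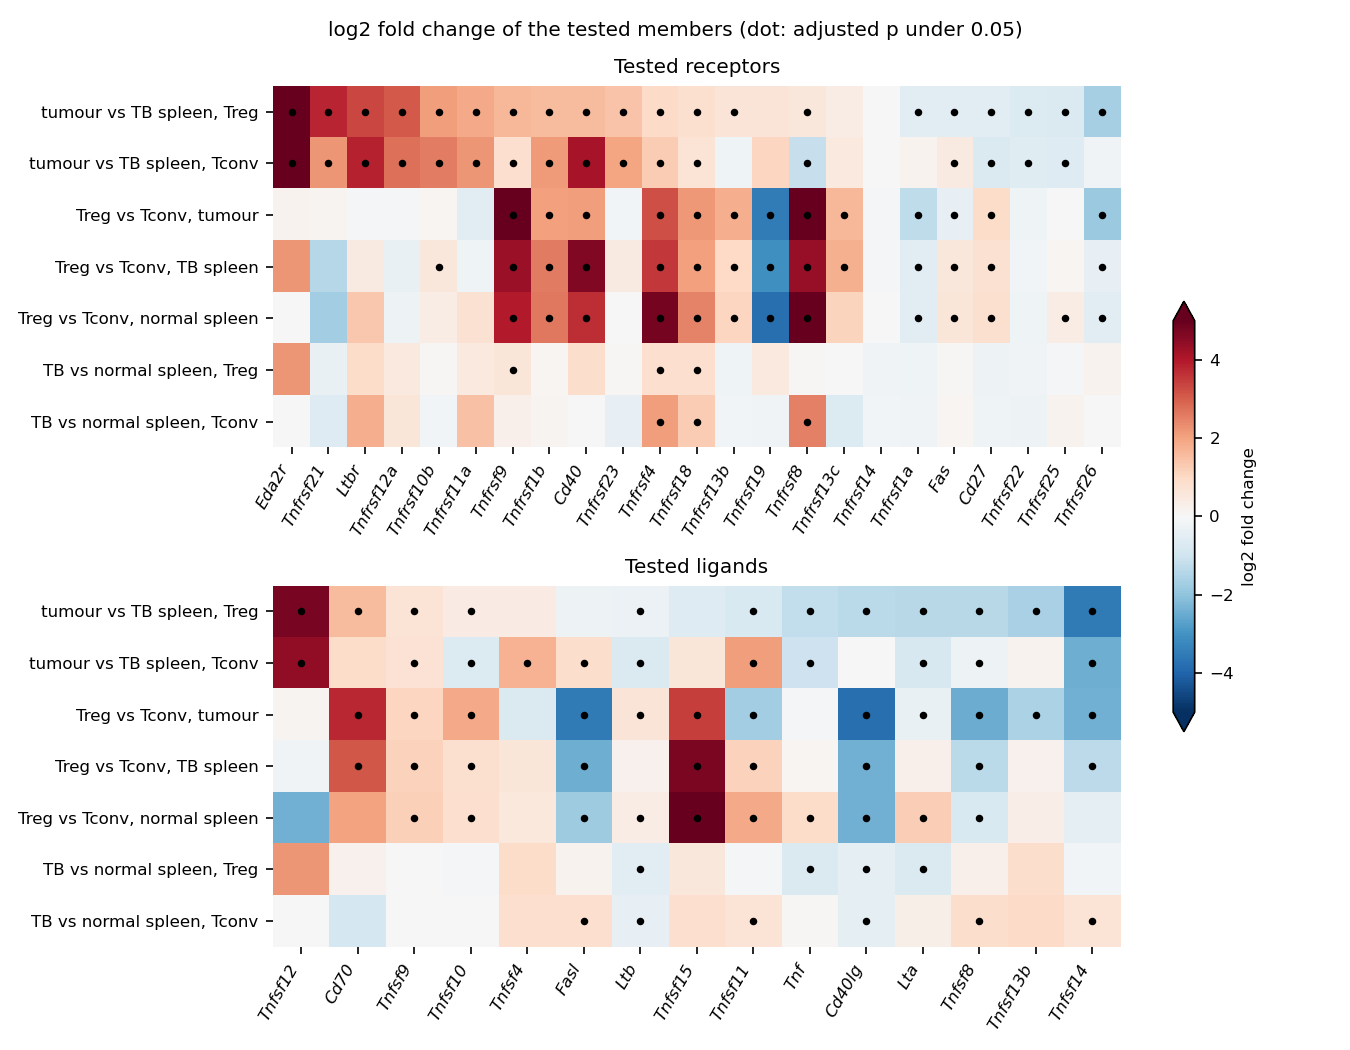
Log2 fold change of each tested receptor (upper panel, 23 genes) and ligand (lower panel, 15 genes) in the 7 comparisons of 2 groups, with red for higher and blue for lower in the group named first, colours capped at 5 in either direction and a dot for an adjusted p under 0.05. Pale cells without a dot include members with 0 to a few counts in both groups. Receptors carry more red in the tumour comparisons and in Treg, and ligands more blue in the tumour comparison of Treg.

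Receptors were mostly higher in tumour Treg than in TB spleen Treg. Of the 23 tested, 14 rose and 6 fell, where 61.4% of all genes were called (32.8% higher and 28.7% lower). In tumour Tconv over TB spleen Tconv, 13 receptors rose and 4 fell, against a background of 49.1% called, 26.4% higher and 22.8% lower. The median log2 change of the receptors was 0.78 in Treg and 0.84 in Tconv, while over all tested genes it was 0.02 in Treg and 0.00 in Tconv. Summed over all 26 receptors, the level was 6591 and 6179 CPM in tumour Treg, 3069 and 2923 CPM in TB spleen Treg and 2404 and 2317 CPM in normal spleen Treg. In Tconv the sum was 1478 and 1330 CPM in the tumour, 794 and 839 CPM in the TB spleen and 738 and 730.1 CPM in the normal spleen. Each of the 3 Treg groups lay above every Tconv group. In tumour Treg most of the sum came from Tnfrsf1b, Tnfrsf9, Tnfrsf4 and Tnfrsf18, with means of 2422, 1483, 1108 and 855 CPM. Over the tested receptors, the median log2 difference of Treg over Tconv was 0.10 in the tumour, 0.57 in the TB spleen and 0.59 in the normal spleen. In bulk RNA, a difference in the number of cells of a type and one in RNA per cell cannot be told apart.

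Between cell types, 9 receptors were higher and 4 lower in tumour Treg than in tumour Tconv, where 53.9% of all genes were called, 27.2% higher and 26.7% lower. In the TB spleen 11 were higher and 3 lower in Treg (40.3% of all genes called, 21% higher and 19.4% lower). In the normal spleen 10 were higher and 3 lower (40.6%, with 21.8% higher and 18.7% lower). Higher in Treg at all 3 sites were 8 receptors: Cd27, Cd40, Tnfrsf13b, Tnfrsf18, Tnfrsf1b, Tnfrsf4, Tnfrsf8 and Tnfrsf9. Lower in Treg at all 3 were 3: Tnfrsf19, Tnfrsf1a and Tnfrsf26. The share of all genes called alike at all 3 sites was not counted. Within the spleen, TB against normal mice, 3 receptors rose in Treg (Tnfrsf9, Tnfrsf4 and Tnfrsf18) and none fell, where 15.3% of all genes were called, 6.8% higher and 8.5% lower. In that comparison 1 receptor was lower at an unadjusted p under 0.05 and 1 was called lower by DESeq2. In Tconv 3 rose (Tnfrsf8, Tnfrsf4 and Tnfrsf18) and none fell, with 1 lower at an unadjusted p under 0.05 and none by DESeq2. The background was 17.2%, 9.74% higher and 7.49% lower, and the share of receptors called, 13% in both cell types, was no larger.

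Per kb of exon, the 4 receptors with the highest levels in tumour Treg lie on chromosome 4. Tnfrsf4 (chr4:156013843-156016612), which encodes the costimulatory receptor OX40, had 1115 and 1101 CPM in tumour Treg, against 583 and 573 CPM in TB spleen Treg and 322 and 315 CPM in normal spleen Treg. In Tconv it had 136 and 105 CPM in tumour Tconv, 45.3 and 54.1 CPM in TB spleen Tconv and 12.2 and 11.0 CPM in normal spleen Tconv. Neither cell type had overlapping groups, and in both the order was tumour, TB spleen, normal spleen. It rose in the tumour in Treg (0.94 ± 0.11, adjusted p = 1.23e-05) and in Tconv (1.27 ± 0.11, adjusted p = 2.98e-06). The changes in Treg and Tconv were not called different (−0.33 ± 0.15, adjusted p = 0.143), although without tumour Tconv library 2 they were (−0.52, adjusted p = 0.00847). In the spleen of TB over normal mice Tnfrsf4 rose by 0.86 ± 0.11 in Treg and by 2.10 ± 0.13 in Tconv (adjusted p = 0.000379 and 2.46e-06). This difference between the cell types was called (−1.24 ± 0.17, adjusted p = 0.00391).

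Beside the rise of Tnfrsf4 in splenic Tconv, Foxp3 was not higher there, with 13.3 and 16.8 CPM in TB spleen Tconv, against 18.1 and 19.6 CPM in normal spleen Tconv. Il2ra, Ctla4, Ikzf2 and Ikzf4 are further genes that Treg express. Il2ra had 42.5 and 65.9 CPM in TB spleen Tconv and 16.0 and 15.6 CPM in normal spleen Tconv. Ctla4 had 49.9 and 51.9 CPM in TB spleen Tconv and 17.7 and 13.5 CPM in normal spleen Tconv. Ikzf2 had 57.5 and 60.1 CPM, against 34.7 and 26.5 CPM, and Ikzf4 14.0 and 13.6 CPM, against 11.9 and 8.49 CPM. Of these 5 genes with Foxp3, 3 were called higher and none lower, where 9.74% of all genes were higher and 7.49% lower. The part of Treg in the rise of Tnfrsf4 was not tested.

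Tnfrsf18, encoding GITR, lies 9.55 kb from Tnfrsf4. It had 896 and 815 CPM in tumour Treg, against 516 and 478 CPM in TB spleen Treg and 272 and 276 CPM in normal spleen Treg. Tconv levels were 213 and 170.0 CPM in tumour Tconv, against 114 and 124 CPM in TB spleen Tconv and 49.1 and 50.2 CPM in normal spleen Tconv. Like Tnfrsf4 it was ordered tumour, TB spleen, normal spleen in both cell types without overlap. It rose in the tumour in Treg (0.78 ± 0.10, adjusted p = 2.07e-05) and Tconv (0.68 ± 0.10, adjusted p = 0.000117). It also rose in the TB spleen over the normal spleen in Treg (0.86 ± 0.10, adjusted p = 0.00016) and Tconv (1.27 ± 0.10, adjusted p = 1.53e-05). Of its 1524 exonic bases, 414 are shared with the antisense gene Gm16008. No source used here gives the strand setting of featureCounts, so its level is uncertain to that extent.

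Tnfrsf9 (chr4:150914562-150946102), encoding the costimulatory receptor 4-1BB, had 1459.8 and 1506 CPM in tumour Treg, against 482 and 462 CPM in TB spleen Treg and 320.3 and 293 CPM in normal spleen Treg. Its Tconv levels were far lower, at 48.7 and 36.4 CPM in tumour Tconv, 23.1 and 24.3 CPM in TB spleen Tconv and 19.6 and 20.1 CPM in normal spleen Tconv. The Treg excess was 5.13 ± 0.12 in the tumour, 4.31 ± 0.12 in the TB spleen and 3.95 ± 0.12 in the normal spleen. The rise in the tumour was larger in Treg (1.65 ± 0.10, adjusted p = 8.84e-08) than in Tconv (0.84 ± 0.11, adjusted p = 8.05e-05), with a called difference (0.81 ± 0.15, adjusted p = 0.00245). In the spleen of TB mice it rose in Treg (0.62 ± 0.10, adjusted p = 0.002). In Tconv the change was 0.26 ± 0.12, adjusted p = 0.162, which passed the test without tumour Tconv library 1 or 2 (adjusted p = 0.0316 and 0.0368).

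Tnfrsf1b (chr4:145213463-145246870), which encodes TNFR2, the TNF receptor without a death domain, had 2621 and 2223 CPM in tumour Treg, against 827 and 801 CPM in TB spleen Treg and 774 and 732 CPM in normal spleen Treg. In Tconv it had 639 and 521 CPM in tumour Tconv, 124 and 144 CPM in TB spleen Tconv and 120.4 and 120.1 CPM in normal spleen Tconv. It rose in the tumour in Treg (1.57 ± 0.11, adjusted p = 1.88e-07) and in Tconv (2.12 ± 0.11, adjusted p = 2.92e-08). The rise was smaller in Treg (Treg minus Tconv, −0.54 ± 0.15, adjusted p = 0.0198). That difference did not pass the test without TB spleen Treg library 1 (adjusted p = 0.0677), TB spleen Tconv library 1 (0.0834) or tumour Treg library 2 (0.0573). Unlike Tnfrsf4, it was not called between TB and normal spleen in Treg (0.11 ± 0.10, adjusted p = 0.521) or Tconv (0.15 ± 0.11, adjusted p = 0.368).

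Tnfrsf8, encoding CD30, lies 20.3 kb from Tnfrsf1b and was read mainly in Treg. It had 32.7 and 29.6 CPM in tumour Treg, 20.2 and 21.5 CPM in TB spleen Treg and 20.8 and 19.5 CPM in normal spleen Treg. These stood against 0.677 and 0.272 CPM in tumour Tconv, 0.938 and 1.08 CPM in TB spleen Tconv and 0.102 and 0.238 CPM in normal spleen Tconv. It rose in tumour Treg (0.58 ± 0.15, adjusted p = 0.00439) and fell in tumour Tconv (−1.14 ± 0.37, adjusted p = 0.0208), at levels of about 1 CPM or less in Tconv. The fall in Tconv did not pass the test when TB spleen Tconv library 2 (−1.04, adjusted p = 0.101) or tumour Tconv library 2 (−0.59, adjusted p = 0.298) was left out. The difference between the cell types (1.72 ± 0.39, adjusted p = 0.00749) did not pass without tumour Tconv library 2 (1.15, adjusted p = 0.0572). In splenic Tconv it rose in TB over normal mice (2.51 ± 0.45, adjusted p = 0.00301). The difference of this change between Treg and Tconv (−2.47 ± 0.48, adjusted p = 0.0335) was lost without any 1 of the 8 spleen libraries (adjusted p = 0.0701 to 0.24).

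Scaled by exon length, Tnfrsf4 averaged 812 CPM per kb in tumour Treg, Tnfrsf1b 634, Tnfrsf18 561 and Tnfrsf9 545. Cd27 followed at 98.3 and Fas at 18.7 CPM per kb. Tnfrsf25 and Tnfrsf14 lie on chromosome 4 too, and neither rose in the tumour. Tnfrsf14, encoding HVEM, the receptor of LIGHT, was the 1 tested member called in none of the 9 comparisons. It had 27.7 and 24.0 CPM in tumour Treg, 26.1 and 27.9 CPM in tumour Tconv, and between 24.7 and 33.1 CPM in the 8 spleen libraries.

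**Figure D2:**
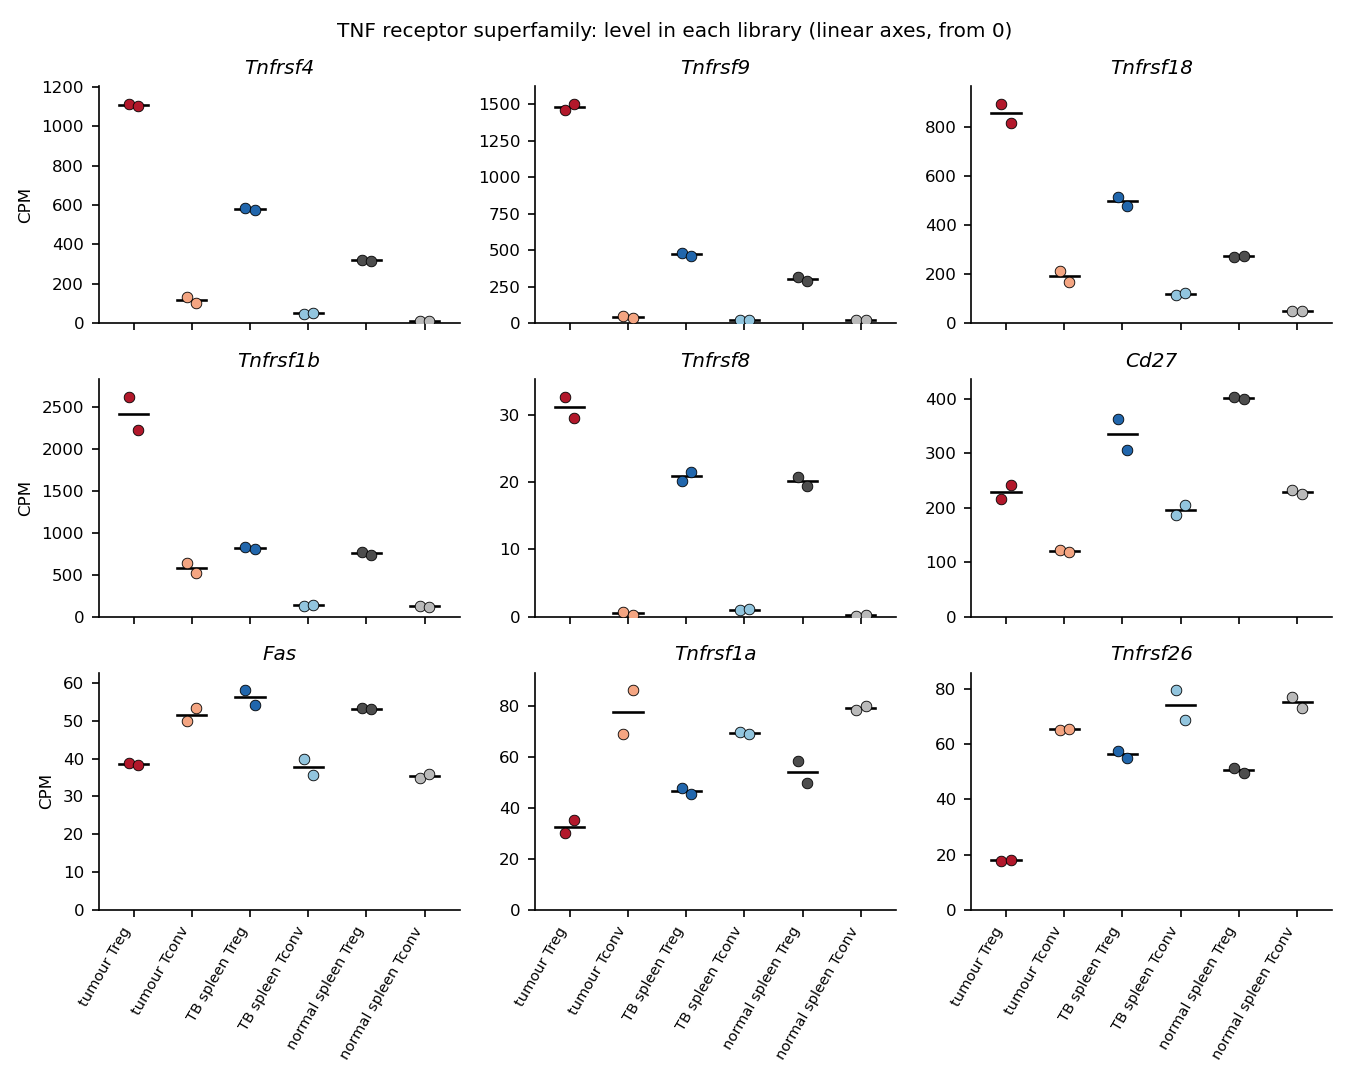
Level in CPM (vertical axes, linear from 0) of 9 receptors in the 2 libraries (points) of each of the 6 groups, with the mean as a black line. Tnfrsf4 and Tnfrsf18 step down tumour, TB spleen, normal spleen within each cell type, while Tnfrsf26 is low in the tumour Treg libraries alone (17.8 and 17.9 CPM).

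Cd27, a costimulatory receptor of naive and memory T cells, went the other way. It fell to 216 and 241 CPM in tumour Treg, against 362 and 306 CPM in TB spleen Treg. In Tconv it fell to 122 and 119 CPM in tumour Tconv, against 186 and 205 CPM in TB spleen Tconv. Normal spleen Treg and Tconv had 403 and 399 CPM and 233 and 226 CPM. The change was −0.55 ± 0.09, adjusted p = 0.000161 in Treg and −0.70 ± 0.09, adjusted p = 3.92e-05 in Tconv. The difference between the cell types was not called (0.16 ± 0.12, adjusted p = 0.395). Treg had more at each site (by 0.93 ± 0.09, 0.77 ± 0.09 and 0.81 ± 0.09 in tumour, TB spleen and normal spleen).

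The death receptor Tnfrsf25, encoding DR3, also fell in the tumour in both cell types, to 31.5 and 28.8 CPM in tumour Treg, against 46.1 and 52.6 CPM in TB spleen Treg (−0.71 ± 0.10, adjusted p = 4.87e-05). Tconv had 31.3 and 27.9 CPM in the tumour, against 45.7 and 47.5 CPM in TB spleen Tconv (−0.66 ± 0.10, adjusted p = 0.000152). Normal spleen Treg had 49.2 and 55.9 CPM, against 40.1 and 41.7 CPM in normal spleen Tconv. This excess (0.36 ± 0.09, adjusted p = 0.00847) was lost without normal spleen Treg library 2 (adjusted p = 0.103) or normal spleen Tconv library 1 (0.0668). Tnfrsf1a, encoding the death-domain receptor TNFR1, stood opposite to Tnfrsf1b in that it was lower in Treg at all 3 sites. It had 30.0 and 35.1 CPM in tumour Treg, against 69.1 and 86.1 CPM in tumour Tconv. Splenic values were 47.9 and 45.4 CPM in TB spleen Treg, against 69.8 and 68.9 CPM in TB spleen Tconv, and 58.5 and 49.9 CPM in normal spleen Treg, against 78.2 and 79.8 CPM in normal spleen Tconv. It fell in tumour Treg (−0.52 ± 0.11, adjusted p = 0.00162), while its change in tumour Tconv was 0.16 ± 0.11, adjusted p = 0.232. The difference between them was called (−0.69 ± 0.16, adjusted p = 0.00761). Without tumour Tconv library 1 the Tconv change passed the test (0.32, adjusted p = 0.022).

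Fas, the receptor of Fas ligand, changed in opposite directions in the 2 cell types. It fell to 38.8 and 38.3 CPM in tumour Treg, against 58.1 and 54.3 CPM in TB spleen Treg (−0.54 ± 0.08, adjusted p = 6.22e-05). It rose to 49.9 and 53.4 CPM in tumour Tconv, against 39.8 and 35.5 CPM in TB spleen Tconv (0.46 ± 0.08, adjusted p = 0.000378). The groups did not overlap in either cell type, and the difference was called (−1.0 ± 0.11, adjusted p = 6.4e-05). Normal spleen libraries had 53.5 and 53.0 CPM in Treg and 34.9 and 36.0 CPM in Tconv. Treg was thus above Tconv in both spleens (by 0.58 ± 0.08 and 0.59 ± 0.08) and below it in the tumour (−0.42 ± 0.08, adjusted p = 0.000466). Tnfrsf10b, encoding the mouse TRAIL receptor, rose in both cell types, to 27.3 and 33.3 CPM in tumour Treg, against 6.13 and 8.04 CPM in TB spleen Treg. Tconv had 23.5 and 33.1 CPM in tumour Tconv, against 5.00 and 4.53 CPM in TB spleen Tconv. The changes were 2.10 ± 0.18, adjusted p = 1.21e-06 in Treg and 2.57 ± 0.19, adjusted p = 6.09e-07 in Tconv. The difference between them was not called (−0.48 ± 0.26, adjusted p = 0.211) but was without tumour Tconv library 1 (−0.72, adjusted p = 0.0324). Normal spleen libraries held 5.10 to 6.74 CPM.

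A cluster on chromosome 7 holds Tnfrsf26, Tnfrsf22 and Tnfrsf23, mouse genes related to the TRAIL receptors, of which the last 2 encode decoys without a death domain. The 3 genes lie within 6.08 and 16.1 kb of each other. Tnfrsf26 fell to 17.8 and 17.9 CPM in tumour Treg, against 57.6 and 55.1 CPM in TB spleen Treg and 51.5 and 49.5 CPM in normal spleen Treg (−1.66 ± 0.08, adjusted p = 1.54e-08 over TB spleen Treg). Its Tconv values were 65.0 and 65.6 CPM in tumour Tconv, against 79.5 and 68.8 CPM in TB spleen Tconv and 77.2 and 73.0 CPM in normal spleen Tconv. The change in Tconv (−0.18 ± 0.08, adjusted p = 0.0659) passed the test with library-size scaling (−0.29, adjusted p = 0.00704) and without TB spleen Tconv library 2 (−0.29, adjusted p = 0.0138). The difference between the cell types was called (−1.48 ± 0.11, adjusted p = 5.48e-06). Tnfrsf22 fell in both, to 9.59 and 12.6 CPM in tumour Treg, against 17.5 and 17.8 CPM in TB spleen Treg (−0.66 ± 0.13, adjusted p = 0.001). It had 11.6 and 13.9 CPM in tumour Tconv, against 20.1 and 18.4 CPM in TB spleen Tconv (−0.59 ± 0.13, adjusted p = 0.00319). Tnfrsf23 rose in both, to 8.16 and 11.5 CPM in tumour Treg, against 3.60 and 3.77 CPM in TB spleen Treg (1.41 ± 0.24, adjusted p = 0.000286). It had 8.07 and 13.2 CPM in tumour Tconv, against 2.71 and 2.69 CPM in TB spleen Tconv (1.98 ± 0.25, adjusted p = 4.64e-05). Normal spleen libraries had 19.2 to 23.2 CPM of Tnfrsf22 and 3.31 to 3.70 CPM of Tnfrsf23. Tnfrsf26 and Tnfrsf23 share 107 and 164 exonic bases with E230032D23Rik, and reads may also be split among these similar genes.

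Receptors best known on B cells were read in Treg. Tnfrsf13b, encoding TACI, a receptor of BAFF and APRIL, had 19.3 and 18.0 CPM in tumour Treg, against 6.43 and 4.26 CPM in tumour Tconv. Splenic values were 11.9 and 12.3 CPM in TB spleen Treg, against 5.47 and 6.69 CPM in TB spleen Tconv, and 13.0 and 15.4 CPM in normal spleen Treg, against 6.22 and 7.15 CPM in normal spleen Tconv. The Treg excess was 1.82 ± 0.18 in the tumour, 0.98 ± 0.18 in the TB spleen and 1.08 ± 0.18 in the normal spleen, with no overlap of Treg and Tconv libraries at any site. It rose in tumour Treg over TB spleen Treg (0.63 ± 0.17, adjusted p = 0.00629). The difference of this change from that in Tconv (0.83 ± 0.26, adjusted p = 0.0348) was lost without any 1 of 6 libraries (adjusted p = 0.0504 to 0.148), tumour Treg library 1 and tumour Tconv library 2 among them. The other 2, Cd40 and the BAFF receptor Tnfrsf13c, stayed at or under 2.45 and 1.35 CPM in every library, and Cd40 was higher in Treg at all 3 sites. In the spleens its excess rested on few counts, 35 in TB spleen Treg and 18 in normal spleen Treg against 1 in Tconv of either. The normal spleen excess of 3.70 was 2.79 without normal spleen Tconv library 2. Among B cell markers, Ms4a1 and Pax5 had 0 to 0.381 CPM in every library, while Cd79b had 16.2 to 25.3 CPM in the 6 Treg libraries and 0.590 to 1.56 CPM in the 6 Tconv libraries.

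Some receptors were read in both tumour Treg and tumour Tconv and hardly in the spleens. Eda2r (chrX:97333840-97377216), encoding the receptor of ectodysplasin A2, had 8.03 and 10.4 CPM in tumour Treg and 3.72 and 12.6 CPM in tumour Tconv. It was listed at 0 in 7 of the 8 spleen libraries and at 0.0423 CPM, 1 count, in TB spleen Treg library 2. With 424 counts in tumour Treg against 1 in TB spleen Treg, the ratio was 444 (95% interval 79.3 to 17576, exact binomial, counting error only). Tumour Tconv was at least 120-fold higher than TB spleen Tconv, whose 0 counts were set to a group floor of 3. Tnfrsf12a, encoding Fn14, the TWEAK receptor, had 21.6 and 17.2 CPM in tumour Treg, against 2.62 and 2.03 CPM in TB spleen Treg (3.06 ± 0.26, adjusted p = 1.08e-06). Tconv had 14.7 and 25.4 CPM in tumour Tconv, against 3.02 and 2.96 CPM in TB spleen Tconv (2.75 ± 0.26, adjusted p = 3.84e-06). Ltbr, the lymphotoxin β receptor of stromal and myeloid cells, had 5.38 and 7.17 CPM in tumour Treg and 4.40 and 8.67 CPM in tumour Tconv. The 8 spleen libraries had 0.051 to 0.859 CPM (log2 changes of 3.32 ± 0.49 in Treg and 3.84 ± 0.52 in Tconv). Tnfrsf21, encoding the death receptor DR6, had 1.82 and 2.93 CPM in tumour Treg and 0.733 and 3.49 CPM in tumour Tconv. Its rise in Tconv (2.22 ± 0.73, adjusted p = 0.0247) did not hold without tumour Tconv library 2 (0.66, adjusted p = 0.518), TB spleen Tconv library 1 (adjusted p = 0.0999) or library 2 (0.117). Eda2r, Ltbr and Tnfrsf21 averaged under the 5 CPM over all libraries that the rule for described members asks, and were chosen after their values were seen.

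Fibroblast and myeloid markers were also high in the tumour libraries and low in the spleens. The summed fibroblast level given above came from 7 genes. Macrophage and monocyte markers, 8 genes with Lyz2 among them, summed to 256 and 361 CPM in tumour Treg and 184 and 461 CPM in tumour Tconv, against 2.04 to 9.65 CPM in the spleen libraries. Most of the tumour sums was Lyz2, with 217 and 310 CPM in tumour Treg and 153 and 391 CPM in tumour Tconv. Lung and tumour epithelium markers summed to 57.5 and 52.6 CPM in tumour Treg, against 25.9 to 28.4 CPM in spleen Treg. In Tconv they summed to 25.3 and 37.8 CPM in the tumour, against 2.86 to 4.98 CPM in the spleens. Among tumour Tconv libraries, number 2 exceeded number 1 by a ratio of 2.44 in the fibroblast sum and 2.50 in the macrophage sum. It was 6.3 for neutrophil, 1.68 for dendritic cell and 1.5 for epithelium markers. For B cell, CD8 T cell, endothelium and NK cell markers it was 1.27, 1.16, 1.01 and 0.82. The same ratio was 3.39 for Eda2r, 4.76 for Tnfrsf21, 1.97 for Ltbr, 1.73 for Tnfrsf12a, 1.63 for Tnfrsf23 and 1.41 for Tnfrsf10b. For Tnfrsf4, Tnfrsf9, Tnfrsf18 and Tnfrsf1b it was 0.77, 0.748, 0.799 and 0.816. The tumour Treg pair showed no such common order. There the fibroblast sum was lower in library 2 (423 and 402 CPM) and the macrophage sum higher (256 and 361 CPM). Eda2r, Tnfrsf21, Ltbr, Tnfrsf23 and Tnfrsf10b were higher in tumour Treg library 2 than in library 1, and Tnfrsf12a was lower. Among the 14 members higher in the tumour in both cell types, 8 had a tumour Tconv ratio above 1. The matching shares over all genes were not counted, and the part of other cell types in these results was not tested.

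**Figure D3:**
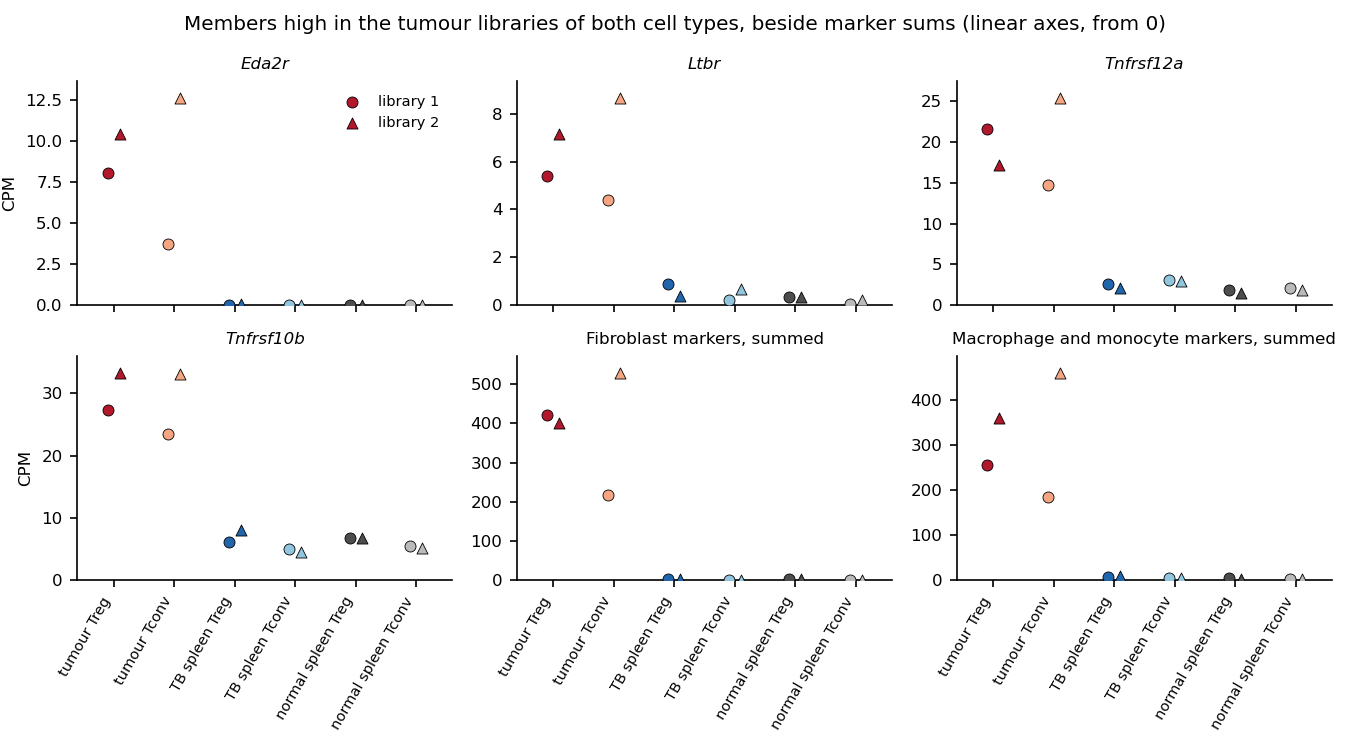
Level in CPM (vertical axes, linear from 0) of 4 receptors and of 2 summed marker lists in library 1 (circle) and library 2 (triangle) of each group. All 6 panels are high in the 4 tumour libraries and near the axis or low in the 8 spleen libraries, and tumour Tconv library 2 is above library 1 in each.

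The remaining tested receptors were low. Tnfrsf11a, encoding RANK, the receptor of RANKL, stayed at or under 0.846 CPM and was called higher in the tumour in both cell types. In Treg the call did not hold without tumour Treg library 2 (adjusted p = 0.226) or either TB spleen Treg library (0.192 and 0.062). In Tconv it did not hold without tumour Tconv library 1 (0.0767) or TB spleen Tconv library 2 (0.139). Tnfrsf19 stayed at or under 2.93 CPM and was lower in Treg at each site.

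In tumour Treg over TB spleen Treg, 4 of the 15 tested ligands rose and 8 fell, where 32.8% of all genes were higher and 28.7% lower. In tumour Tconv 5 rose and 6 fell, where 26.4% of all genes were higher and 22.8% lower. The median log2 change of the ligands was −0.64 in Treg and 0.18 in Tconv, beside 0.02 and 0.00 over all tested genes. Summed over all 18 ligands, the level was 726 and 723 CPM in tumour Treg and 838 and 737 CPM in tumour Tconv, against 928 and 877 CPM in TB spleen Treg and 921 and 974 CPM in TB spleen Tconv. Normal spleen had 1205 and 1202 CPM in Treg and 1059.6 and 1016 CPM in Tconv. Ltb was the largest part of the ligand sum in every group. Between cell types, 5 ligands were higher and 7 lower in tumour Treg, where 27.2% of all genes were higher and 26.7% lower. In TB spleen Treg 5 were higher and 4 lower (21% and 19.4% of all genes), and in normal spleen Treg 7 were higher and 3 lower (21.8% and 18.7% of all genes). Higher in Treg at all 3 sites were Tnfsf10, Tnfsf15 and Tnfsf9, and lower at all 3 were Cd40lg, Fasl and Tnfsf8, sets without a counted share over all genes. Ltb was called higher in Treg in the tumour and the normal spleen. In the TB spleen it was at the threshold (0.21, adjusted p = 0.0504 in edgeR's test), and DESeq2 called it higher (adjusted p = 0.0252).

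Tnfsf11 (chr14:78277445-78308043), encoding RANKL, whose promoter stretch is printed above, changed its order between Treg and Tconv. In the tumour Treg had less, 36.8 and 33.3 CPM, against 124 and 109.7 CPM in tumour Tconv (−1.74 ± 0.09, adjusted p = 8.52e-09). In the TB spleen Treg had more, 62.6 and 57.1 CPM, against 28.4 and 25.8 CPM in TB spleen Tconv (1.14 ± 0.09, adjusted p = 6.98e-07). The normal spleen had 63.9 and 61.6 CPM in Treg, against 17.6 and 16.5 CPM in normal spleen Tconv (1.88 ± 0.09, adjusted p = 1.3e-08). Treg and Tconv libraries did not overlap at any of the 3 sites. The ligand thus fell in tumour Treg over TB spleen Treg (−0.77 ± 0.09, adjusted p = 1.28e-05) and rose in tumour Tconv over TB spleen Tconv (2.11 ± 0.09, adjusted p = 4.66e-09). The difference was the largest in size of the members' called site differences (−2.88 ± 0.13, adjusted p = 1.26e-07). In the spleen it rose in Tconv of TB mice (0.67 ± 0.10, adjusted p = 0.000985) and changed by −0.07 ± 0.09, adjusted p = 0.647 in Treg. That difference (−0.73 ± 0.13, adjusted p = 0.0188) was lost without any 1 of 6 spleen libraries (adjusted p = 0.061 to 0.144).

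**Figure D4:**
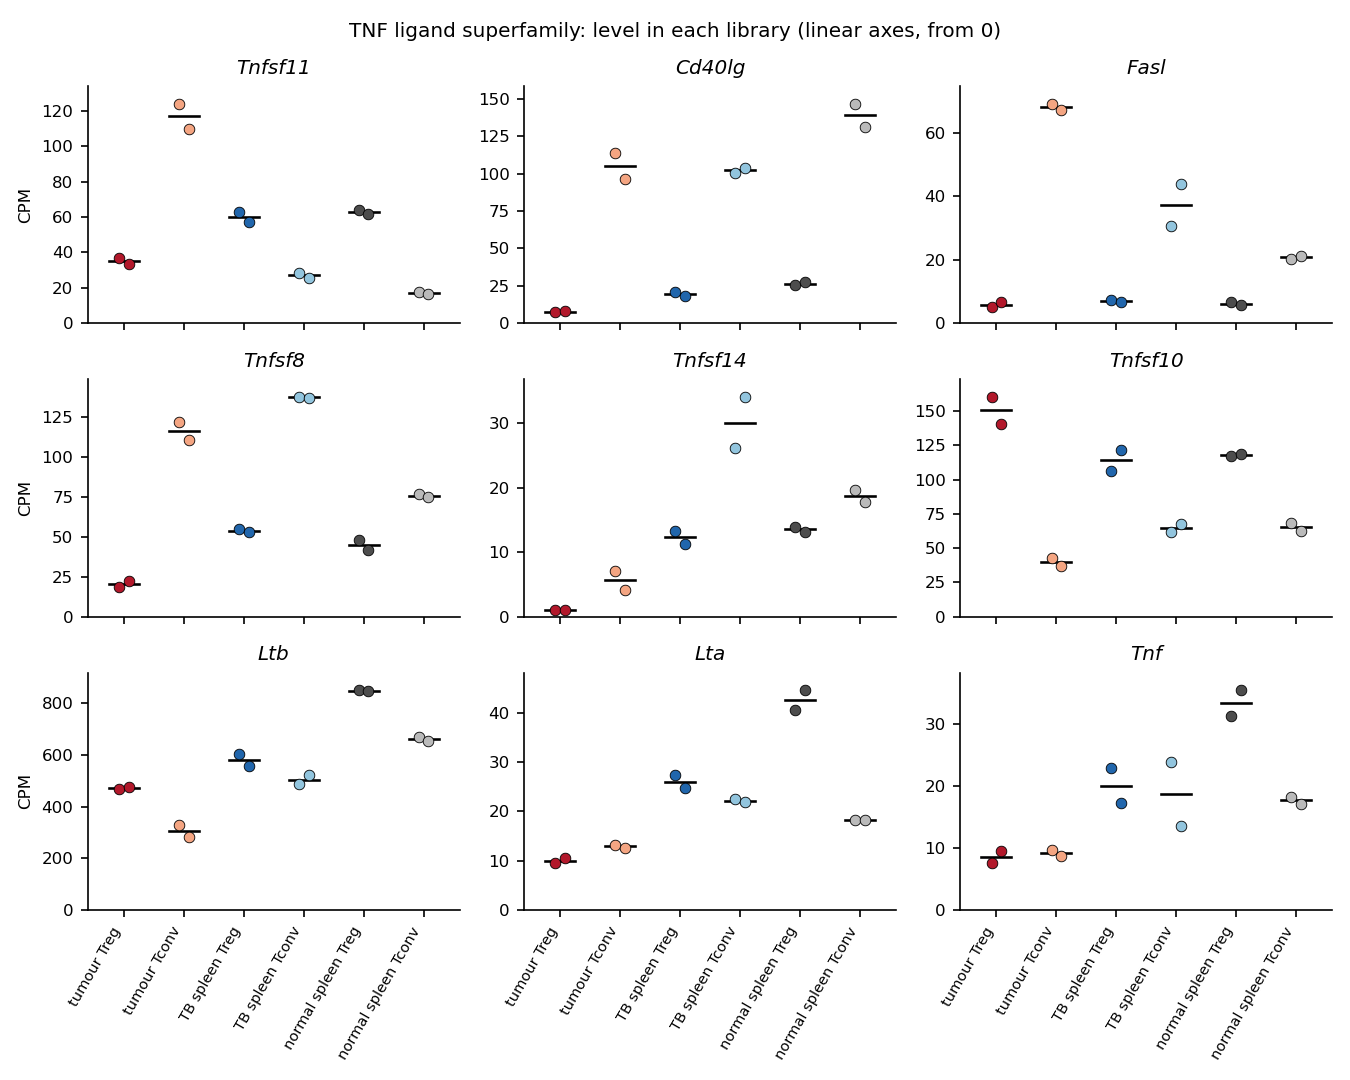
Level in CPM (vertical axes, linear from 0) of 9 ligands in the 2 libraries (points) of each of the 6 groups, with the mean as a black line. Tnfsf11 is highest in tumour Tconv (124 and 109.7 CPM) yet higher in Treg than in Tconv of both spleens, and Cd40lg, Fasl and Tnfsf8 are higher in Tconv throughout.

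Cd40lg, Fasl and Tnfsf8 were the 3 ligands called lower in Treg at all 3 sites. Cd40lg, encoding CD40 ligand, the signal to B cells and antigen-presenting cells, had 7.34 and 7.95 CPM in tumour Treg, against 114 and 96.4 CPM in tumour Tconv (−3.78 ± 0.11, adjusted p = 1.32e-10). In the spleens it had 20.8 and 18.2 CPM in TB spleen Treg, against 101 and 104 CPM in TB spleen Tconv, and 25.3 and 27.8 CPM in normal spleen Treg, against 147 and 131 CPM in normal spleen Tconv. Treg fell in the tumour (−1.35 ± 0.12, adjusted p = 1.73e-06) while Tconv changed by 0.04 ± 0.09, adjusted p = 0.766. That difference was called (−1.39 ± 0.15, adjusted p = 7.06e-05). It was lower in the TB than the normal spleen in Treg (−0.44 ± 0.11, adjusted p = 0.0163) and Tconv (−0.44 ± 0.09, adjusted p = 0.00711). The call in Treg was lost without TB spleen Treg library 2 (adjusted p = 0.145) or normal spleen Treg library 2 (0.143). The call in Tconv was lost without TB spleen Tconv library 1 (adjusted p = 0.0585) or normal spleen Tconv library 1 (0.079).

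Fasl, encoding the death ligand of cytotoxic cells, had 4.99 and 6.77 CPM in tumour Treg, against 69.2 and 67.1 CPM in tumour Tconv. Spleen levels were 7.24 and 6.65 CPM in TB spleen Treg, against 30.7 and 43.9 CPM in TB spleen Tconv, and 6.65 and 5.61 CPM in normal spleen Treg, against 20.3 and 21.2 CPM in normal spleen Tconv. The 6 Treg libraries stayed between 4.99 and 7.24 CPM, while Tconv was ordered tumour, TB spleen, normal spleen with no overlap. It rose in tumour Tconv (0.87 ± 0.15, adjusted p = 0.000457), its change in tumour Treg was −0.24 ± 0.20, adjusted p = 0.306, and the difference was called (−1.11 ± 0.25, adjusted p = 0.00657). In splenic Tconv it rose in TB mice (0.85 ± 0.16, adjusted p = 0.00358), by 0.56, adjusted p = 0.0359 without TB spleen Tconv library 2. NK cell markers, which share effector genes with such cells, summed to 64.3 and 95.0 CPM in TB spleen Tconv and 47.1 and 40.4 CPM in normal spleen Tconv. In tumour Tconv they summed to 37.0 and 30.4 CPM. Of the 4 markers, Klra8 had 0 CPM in every library and Ncr1 at most 0.673 CPM, so the sums were nearly all Klrb1c and Eomes. Klrb1c had 42.7 and 73.1 CPM in TB spleen Tconv, against 20.9 and 19.1 CPM in normal spleen Tconv. Eomes had 21.3 and 21.2 CPM, against 25.9 and 21.1 CPM, and was not higher in the TB spleen. The part of NK cells was not tested.

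Tnfsf8, encoding CD30 ligand, had 18.6 and 22.5 CPM in tumour Treg, against 122 and 111 CPM in tumour Tconv. The spleens had 54.9 and 52.9 CPM in TB spleen Treg, against 138 and 137 CPM in TB spleen Tconv, and 47.9 and 41.8 CPM in normal spleen Treg, against 76.6 and 74.6 CPM in normal spleen Tconv. Its receptor gene Tnfrsf8 stood on the Treg side at all 3 sites and the ligand on the Tconv side. The ligand fell in tumour Treg (−1.39 ± 0.10, adjusted p = 2.27e-07) and in tumour Tconv (−0.24 ± 0.09, adjusted p = 0.0359). The change in Treg minus that in Tconv was −1.15 ± 0.13, adjusted p = 8.34e-05. The decrease in Tconv did not hold without tumour Tconv library 2 (−0.18, adjusted p = 0.17), TB spleen Tconv library 1 (adjusted p = 0.106) or library 2 (0.1) and in DESeq2 (0.103). Tnfsf14, encoding LIGHT, a ligand of HVEM and the lymphotoxin β receptor, fell to 1.04 and 1.05 CPM in tumour Treg, against 13.3 and 11.3 CPM in TB spleen Treg and 13.9 and 13.2 CPM in normal spleen Treg (−3.55 ± 0.27, adjusted p = 4.67e-07 over TB spleen). In Tconv it fell to 7.11 and 4.08 CPM in tumour Tconv, against 26.1 and 34.1 CPM in TB spleen Tconv and 19.7 and 17.8 CPM in normal spleen Tconv (−2.45 ± 0.21, adjusted p = 2.27e-06). The difference between the cell types (−1.10 ± 0.36, adjusted p = 0.0418) was lost without any 1 of 9 libraries (adjusted p = 0.053 to 0.129), controls from normal mice included. Tnfsf8 and Tnfsf14 were higher in TB than in normal spleen Tconv (0.86 ± 0.09, adjusted p = 8.8e-05, and 0.68 ± 0.19, adjusted p = 0.0279). The second call was lost without TB spleen Tconv library 2 (adjusted p = 0.215), normal spleen Tconv library 1 (0.0969) or library 2 (0.193).

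Tnfsf10, encoding TRAIL, moved apart in the tumour. It rose to 160.3 and 141 CPM in tumour Treg, against 106 and 122 CPM in TB spleen Treg (0.40 ± 0.09, adjusted p = 0.00245). It fell to 43.0 and 37.2 CPM in tumour Tconv, against 61.7 and 67.6 CPM in TB spleen Tconv (−0.69 ± 0.10, adjusted p = 0.000125). Normal spleen Treg had 117 and 119 CPM, against 68.4 and 62.1 CPM in normal spleen Tconv. Treg and Tconv did not overlap at any site. Treg minus Tconv was 1.91 ± 0.10 in the tumour, 0.82 ± 0.10 in the TB spleen and 0.85 ± 0.10 in the normal spleen, and the site changes differed (1.09 ± 0.14, adjusted p = 0.000173).

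The lymphotoxin genes Ltb and Lta flank Tnf on chromosome 17, with 3.06 kb between Ltb and Tnf and 1.16 kb between Tnf and Lta, and the 3 were lowest in the tumour. Ltb (chr17:35194439-35196320), which encodes the membrane anchor of surface lymphotoxin, had 470.0 and 478 CPM in tumour Treg, against 604 and 558 CPM in TB spleen Treg and 851 and 847 CPM in normal spleen Treg. In Tconv it had 328 and 282 CPM in tumour Tconv, against 486 and 522 CPM in TB spleen Tconv and 671 and 654 CPM in normal spleen Tconv. In both cell types tumour libraries lay below TB spleen and TB spleen below normal spleen, without overlap. The decrease in the tumour was −0.29 ± 0.08, adjusted p = 0.00548 in Treg, lost without TB spleen Treg library 1 (adjusted p = 0.0579), and −0.72 ± 0.08, adjusted p = 1.25e-05 in Tconv. Their difference (0.43 ± 0.11, adjusted p = 0.0137) was lost without library 2 of TB spleen Treg (adjusted p = 0.0601) or of TB spleen Tconv (0.0562). TB spleen was below normal spleen in Treg (−0.55 ± 0.08, adjusted p = 0.00091) and in Tconv (−0.39 ± 0.08, adjusted p = 0.00509). The last call was lost without TB spleen Tconv library 1 (adjusted p = 0.0526).

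Lta, the soluble partner, had 9.42 and 10.5 CPM in tumour Treg, against 27.4 and 24.7 CPM in TB spleen Treg and 40.5 and 44.6 CPM in normal spleen Treg. Tconv levels were 13.1 and 12.6 CPM in tumour Tconv, against 22.4 and 21.8 CPM in TB spleen Tconv and 18.1 and 18.3 CPM in normal spleen Tconv. In Treg it thus fell in the tumour (−1.39 ± 0.10, adjusted p = 3.28e-07) and in the TB spleen over the normal spleen (−0.71 ± 0.09, adjusted p = 0.000511). In Tconv it fell in the tumour (−0.78 ± 0.10, adjusted p = 5.13e-05), while TB over normal spleen gave 0.28 ± 0.10, adjusted p = 0.0719. That change passed the test with library-size (adjusted p = 0.0254) and upper-quartile scaling (0.0495). The TB change differed between the cell types (−0.99 ± 0.13, adjusted p = 0.00407), as did the site change (−0.60 ± 0.14, adjusted p = 0.00934). Treg was slightly below Tconv in the tumour (−0.37 ± 0.11, adjusted p = 0.0108), a call that was lost without tumour Treg library 1 (−0.29, adjusted p = 0.0748). It was above Tconv in the normal spleen (1.22 ± 0.10, adjusted p = 6.04e-07).

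Tnf had 7.55 and 9.53 CPM in tumour Treg, against 22.8 and 17.3 CPM in TB spleen Treg and 31.3 and 35.4 CPM in normal spleen Treg. Tconv levels were 9.70 and 8.71 CPM in tumour Tconv, against 23.8 and 13.6 CPM in TB spleen Tconv and 18.2 and 17.1 CPM in normal spleen Tconv. It fell in the tumour in Treg (−1.23 ± 0.23, adjusted p = 0.000542) and Tconv (−1.02 ± 0.23, adjusted p = 0.00316). Without TB spleen Tconv library 1 the change in Tconv was −0.56, adjusted p = 0.0418. The difference between the cell types was not called (−0.21 ± 0.33, adjusted p = 0.687). Treg had more than Tconv in the normal spleen (0.91 ± 0.21, adjusted p = 0.00425). Its decrease in TB over normal spleen Treg (−0.73 ± 0.21, adjusted p = 0.0351) was lost without any 1 of 6 spleen libraries (adjusted p = 0.0528 to 0.249) and with library-size scaling (0.052).

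The other 6 tested ligands averaged under 5 CPM. Tnfsf9, encoding 4-1BB ligand, ranged from 1.62 to 7.34 CPM over the 12 libraries and was higher in Treg at each site by 1.07 ± 0.22, 1.15 ± 0.24 and 1.20 ± 0.24 (tumour, TB spleen, normal spleen). It also rose in the tumour in both cell types (0.67 ± 0.21, adjusted p = 0.017 in Treg and 0.74 ± 0.25, adjusted p = 0.0246 in Tconv). The call in Treg was lost without tumour Treg library 2 (adjusted p = 0.103) or TB spleen Treg library 1 (0.141). That in Tconv was lost without tumour Tconv library 2 (0.135) or TB spleen Tconv library 1 (0.165). Tnfsf4, encoding OX40 ligand, rose in tumour Tconv to 2.71 and 2.63 CPM, against 0.730 and 0.853 CPM in TB spleen Tconv (1.74 ± 0.39, adjusted p = 0.00299). Tnfsf13b, encoding BAFF, fell in tumour Treg to 0.651 and 0.524 CPM, against 1.55 and 2.07 CPM in TB spleen Treg (−1.62 ± 0.40, adjusted p = 0.00393). Cd70, Tnfsf15 and Tnfsf12, encoding CD27 ligand, TL1A and TWEAK, stayed at or under 0.781, 1.47 and 0.961 CPM. Cd70 and Tnfsf15 were mostly read in Treg. Tnfsf12, with 32 counts in tumour Treg and 26 in tumour Tconv against 1 in TB spleen of either cell type, was mostly read in the tumour. The tumour Tconv counts were 6 in library 1 and 20 in library 2. Tnfsf12 changed by 4.44 in Tconv, by 3.52 without tumour Tconv library 2, and by 3.67 and 6.81 without TB spleen Tconv library 1 or 2. Of its 1515 exonic bases, 731 are shared on the same strand with the protein-coding gene Tnfsfm13, as are 983 of the 1637 of Tnfsf13. How reads from shared bases were counted is not given, so the levels of Tnfsf12, Tnfsf13 and their fused locus are uncertain.

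In the spleen of TB over normal mice, none of the ligands rose in Treg and 4 fell (Ltb, Tnf, Lta and Cd40lg), with 3 higher at an unadjusted p under 0.05 and none by DESeq2. In Tconv 4 rose (Fasl, Tnfsf11, Tnfsf14 and Tnfsf8) and 2 fell (Ltb and Cd40lg). Over both classes 7 of 38 members were called in Treg, which is 18.4%, and 9 in Tconv, which is 23.7%, against 15.3% and 17.2% of all genes.

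Whether the tumour change differed between Treg and Tconv was tested member by member. It did for 16 of 38 members (42.1%), where 24.7% of all genes were called, 11.7% higher and 13.1% lower. The change in Treg minus that in Tconv was positive for 3 receptors and 2 ligands and negative for 4 receptors and 7 ligands. Fas, Tnfrsf8, Tnfsf10 and Tnfsf11 were called in opposite directions in the 2 cell types, a pattern that was not counted over all genes. For the TB change in the spleen the same test called 4 members, Tnfrsf4, Tnfrsf8, Tnfsf11 and Lta, where 0.851% of all genes were called, 0.222% higher and 0.629% lower. All 4 were lower on the Treg side; no receptor or ligand was higher on that side, with 1 receptor and no ligand higher at an unadjusted p under 0.05 and none by DESeq2.

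**Figure D5:**
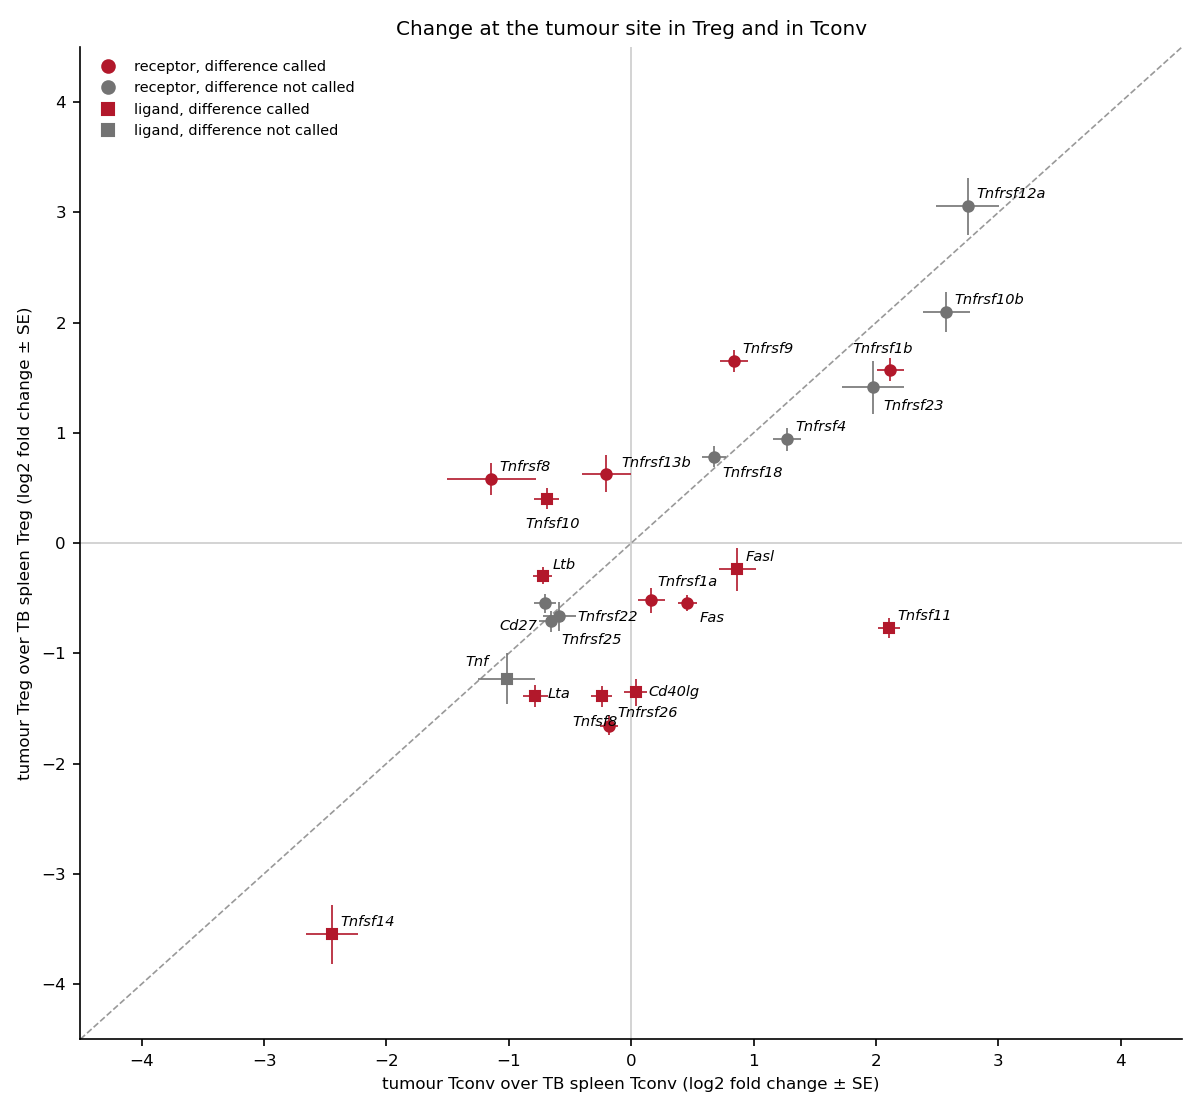
Log2 fold change ± SE of tumour over TB spleen in Tconv (horizontal) and Treg (vertical) for the 24 called members with a mean of at least 5 CPM, receptors as circles and ligands as squares, red where the 2 changes differed at an adjusted p under 0.05. Points on the dashed line changed alike; Tnfsf11 lies farthest from it (−0.77 in Treg and 2.11 in Tconv), while Tnfrsf4, Tnfrsf18 and Tnfrsf12a lie near it.

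Genes that act downstream of these receptors were read as a list of 30 adaptors, enzymes and NF-κB subunits, all of which were tested. In tumour Treg over TB spleen Treg, 14 rose and 3 fell, where 32.8% of all genes were higher and 28.7% lower, so the share of the list called was no larger than the 61.4% of all genes. Among those that rose were Tnfaip3, encoding the NF-κB brake A20 (2.96 ± 0.12), and the survival gene Bcl2l1 (1.64 ± 0.10). The NF-κB inhibitors Nfkbia (1.46 ± 0.07) and Nfkbie (1.26 ± 0.06), the subunit Rel (1.08 ± 0.07) and the adaptor Traf1 (0.97 ± 0.08) rose too. The 3 that fell were Traf5 (−1.11 ± 0.07), Map3k7 (−0.31 ± 0.06) and Tnip1 (−0.29 ± 0.08). In Tconv 14 rose, led by Tnfaip3 (4.27 ± 0.13), and 6 fell, among them the death-domain adaptors Fadd (−0.95 ± 0.12) and Tradd (−0.63 ± 0.10). Of all genes, 26.4% were higher and 22.8% lower in that comparison. The list's median change was 0.16 in Treg and 0.18 in Tconv, beside 0.02 and 0.00 over all tested genes.

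Between cell types, 19 of the 30 were higher and 6 lower in tumour Treg than in tumour Tconv, where 27.2% of all genes were higher and 26.7% lower. In the TB spleen 15 were higher and 4 lower in Treg (21% and 19.4% of all genes), and in the normal spleen 17 were higher and 3 lower (21.8% and 18.7% of all genes). In the tumour Bcl2l1 (2.34 ± 0.11), Traf1 (1.37 ± 0.08) and the necroptosis kinase Ripk3 (1.16 ± 0.11) were higher in Treg, and Map3k14, encoding the noncanonical NF-κB kinase NIK, was lower (−1.69 ± 0.09). In TB over normal spleen 4 rose and 6 fell in Treg, where 15.3% of all genes were called, and 5 rose and 1 fell in Tconv, where 17.2% were. Tnfaip3 was higher in both (1.60 ± 0.12 and 0.98 ± 0.12). The site change differed between the cell types for 16 of the list, 9 with a positive and 7 with a negative value for Treg minus Tconv, where 24.7% of all genes were called, 11.7% higher and 13.1% lower. None of the 30 was called for a difference in the TB change of the spleen, where 0.851% of all genes were, with 3 higher and 5 lower at an unadjusted p under 0.05 in edgeR's test and 2 higher and none lower by DESeq2.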

How the data were processed

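Messenger RNA of 12 libraries in 6 groups of 2 was analysed from whole-number read counts per gene, deposited by the authors without scaling. Per the submitters' processing notes, STAR, featureCounts and build mm10 were used; their versions, the annotation and the strand setting are not given in the sources used here, although the labels' protocols name a stranded mRNA kit. Genes were kept with filterByExpr by group, scaled by TMM (factors 0.942 to 1.07) and fitted in 1 quasi-likelihood model of the 12 libraries with 6 residual degrees of freedom (edgeR 4.0.16, R 4.3.3); the common biological coefficient of variation was 0.0863. Tests were two-sided, with Benjamini-Hochberg adjustment over 13509 genes. An SE is the size of a log2 fold change divided by the square root of F. The script was tested on simulated counts. Exon lengths and positions came from GENCODE mouse release 21 of GRCm38, the assembly that mm10 names, and promoter sequence from RefSeq; 43 of the 44 members matched GENCODE, exons of 5 overlap an opposite-strand gene and those of 3 a same-strand gene. Members with a mean of at least 5 CPM called in at least 1 comparison (24) are described library by library; all members and gene lists were chosen with earlier results of these data known. Alternatives were DESeq2 1.42.0, other scalings and filters, replicate blocks, fits of only the groups compared, a stricter threshold and fits without each library in turn. Plots were made in matplotlib 3.10.9.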

Additional observations from a re-analysis of the deposited data

Results flagged for a closer look

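The change at the tumour site was tested for a difference between Treg and Tconv, as the log2 change of tumour over TB spleen in Treg minus that in Tconv (edgeR's quasi-likelihood test, 8 libraries in the contrast), and 16 members passed. Tnfsf11, encoding RANKL, had −2.88 (adjusted p = 1.26e-07), Tnfsf13b −1.80 (adjusted p = 0.0314), Tnfrsf26 −1.48 (adjusted p = 5.48e-06), Cd40lg −1.39 (adjusted p = 7.06e-05), Tnfsf8 −1.15 (adjusted p = 8.34e-05), Fasl −1.11 (adjusted p = 0.00657), Tnfsf14 −1.10 (adjusted p = 0.0418), Fas −1.0 (adjusted p = 6.4e-05), Tnfrsf1a −0.69 (adjusted p = 0.00761), Lta −0.60 (adjusted p = 0.00934) and Tnfrsf1b −0.54 (adjusted p = 0.0198), all lower on the Treg side. On the other side were Tnfrsf8 at 1.72 (adjusted p = 0.00749), Tnfsf10, encoding TRAIL, at 1.09 (adjusted p = 0.000173), Tnfrsf13b at 0.83 (adjusted p = 0.0348), Tnfrsf9 at 0.81 (adjusted p = 0.00245) and Ltb at 0.43 (adjusted p = 0.0137). Tnfsf13b, which stayed at or under 2.14 CPM, lost its call without any 1 of 6 libraries (adjusted p = 0.0501 to 0.111).

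The change of TB over normal spleen differed between Treg and Tconv for 4 members: Tnfrsf8 at −2.47 (adjusted p = 0.0335), Tnfrsf4 at −1.24 (adjusted p = 0.00391), Lta at −0.99 (adjusted p = 0.00407) and Tnfsf11 at −0.73 (adjusted p = 0.0188). Groups of 2 libraries were too small for a check of single libraries that stand apart.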

How the results depend on the processing

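Of the members' results under the alternatives that kept all libraries, 2876 kept their direction and side of the threshold. As filed, 54 lost a call, 31 gained one and 1 reversed, counts that include misfiled entries of Cd40. Of those that left out 1 library, 3857 kept both, 106 lost a call and 33 gained one. The result filed as reversed was Cd40 in normal spleen Treg over Tconv, at −2.38 when only those groups were fitted. That value appears to belong to Cd40lg, which had 25.3 and 27.8 CPM in normal spleen Treg, against 147 and 131 CPM in Tconv. Cd40 itself had 9 and 9 counts in normal spleen Treg, against 1 and 0 in Tconv, so its direction was not reversed. The Cd40 entries of such fits for tumour over TB spleen Tconv (0.08, filed as lost) and TB over normal spleen Tconv (−0.43, filed as gained) appear misfiled likewise. Without 1 library each, the members called numbered 27 to 32 of 38 for tumour over TB spleen in Treg and 24 to 28 in Tconv, 24 to 27, 20 to 24 and 22 to 24 for Treg over Tconv in tumour, TB spleen and normal spleen, 5 to 9 and 7 to 10 for TB over normal spleen in Treg and Tconv, 12 to 16 for the site difference and 2 to 6 for the TB difference. All genes called then numbered, in the same order, 6846 to 8839, 5258 to 6889, 6190 to 7251, 4085 to 5964, 3955 to 5975, 512 to 2711, 751 to 2720, 2161 to 3679 and 42 to 221. For TB over normal spleen in Treg, 2066 genes were called, against 3670 when only those groups were fitted and 795 at an adjusted p under 0.01; in Tconv 2328 were called, and 932 at 0.01. The site difference had 3337 genes, and 1731 at 0.01. The TB difference had 4 members (7 with only the groups fitted and 2 at 0.01) and 115 genes (184 without a filter, 206 by DESeq2, 320 with only the groups fitted and 43 at 0.01). The cause of these changes was not tested. Library-size scaling moved the median log2 change of all genes to −0.14 in the tumour comparison of Treg and −0.11 in that of Tconv, and the share of called genes that were higher to 39.9%, against 53.3%, and 41.5%, against 53.7%. In TB over normal spleen that share was 66.5% (57.7% with upper-quartile scaling), against 44.4%, in Treg and 78.5%, against 56.5%, in Tconv, and among the 7 members called in Treg 4 were higher, against 3 of 7.

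The titles give the same replicate numbers in each group, but nothing says that they mark shared mice. Deviations of same-numbered libraries correlated between −0.06 and 0.26 over 8664 genes in the 7 pairs of groups compared, so no pairing was assumed. With the number in the title as a replicate block, 32 members were called for tumour over TB spleen in Treg, 28 in Tconv and 16 for the site difference, as without it. With the number in the sample description as a block, the genes called for TB over normal spleen were 818 in Treg and 1189 in Tconv.

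With 2 libraries a group, changes of members under 1 CPM rest on few counts.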
